A study of Homo sapiens with 6 samples.

Results

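The 41 genes described here encode the enzymes of the glutathione and thioredoxin systems and the factors that set how a cell withstands lipid peroxidation. They were taken by gene name from a list drawn up with earlier results of these data known, and all 41 were found among the 57341 named genes of the count table. RNA was sequenced from 3 replicates of H295R, a human adrenocortical carcinoma cell line grown without treatment, and from 3 replicates of H295R-PM-Ptc+, the small share of that line with the Hedgehog receptor Ptch1 at the plasma membrane. The H295R-PM-Ptc+ cells had been sorted with an anti-Ptch1 antibody and then amplified, so they stand for the descendants of sorted cells, and no source used here tells whether the replicates came from separate sorts. Both populations were kept in the same medium, and the labels give no treatment or introduced allele for either.

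Glutathione is a small thiol that is made from cystine, spent by glutathione peroxidases and transferases, and restored at the expense of NADPH. Thioredoxin works beside it as the electron donor of most peroxiredoxins. Ferroptosis is an iron-dependent cell death by peroxidation of membrane phospholipids, which GPX4 opposes with glutathione, and the steroid-making mitochondria of the adrenal cortex are a known source of reactive oxygen.

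The group names are in doubt and were therefore used as names of libraries only. In the study's own table of normalised values, each of the 6 columns matched the deposited library with the same replicate code and the other group name. PTCH1, the gene of the sorted receptor, had 441, 559 and 579 counts in the 3 libraries labelled H295R and 248, 326 and 319 in the 3 labelled H295R-PM-Ptc+, against the direction of the label. The study also measured Ptch1 protein, on cells and not on these libraries, and those measures were not used here. The log2 fold change of PTCH1 RNA was -0.81 (SE 0.147, adjusted p = 0.0207 by edgeR's quasi-likelihood test with Benjamini-Hochberg adjustment). Leaving out H295R replicate 2 gave an adjusted p of 0.0799, leaving out H295R replicate 3 gave 0.0921 and leaving out H295R-PM-Ptc+ replicate 2 gave 0.0618, while the other 3 such fits kept it under 0.05. Every fold change below has the libraries labelled H295R-PM-Ptc+ in the numerator, whichever cells these were. Libraries held 23264403 to 25813247 gene counts, of which 1.49 to 2.85% were mitochondrial. The 9 adrenocortical markers summed to 965 to 1240 CPM (counts scaled to library size) in the libraries labelled H295R and to 1040 to 1322 CPM in the others, with CYP21A2 past the test (log2 fold change 0.88) and CYP11B1 at 3 counts or fewer in every library. With the replicate number as a block in the fit, explained below, STAR (0.41, adjusted p = 0.346, and 3.91e-06 with the block) and CYP11A1 (-0.25, adjusted p = 0.391, and 0.00100 with the block) also passed, each with the same sign in 3 of 3 pairs of equal replicate numbers. Leaving out single libraries moved both values. STAR stood at 0.17 with H295R-PM-Ptc+ replicate 1 omitted and at 0.62 with H295R replicate 1 omitted, and CYP11A1 at -0.36 and -0.10 in the same order. The markers of hematopoietic, endothelial and chromaffin cells and of hepatocytes each summed to at most 2.03 CPM. The 5 fibroblast markers summed to 37.0 to 41.1 CPM in the libraries labelled H295R and to 46.3 to 53.0 CPM in the others. THY1 passed the test (log2 fold change 1.29, adjusted p = 0.0175) with 18, 18 and 15 counts against 36, 45 and 43. LUM stood at 3 counts or fewer. PDGFRA went the other way on average, with 12, 12 and 7 counts against 4, 6 and 7. DCN had 0 to 5 counts per library, and PDGFRA and DCN were not tested. THY1 kept its call when replicate 1 of either group was omitted, and had adjusted p-values of 0.0678 to 0.0907 in the other 4 that left out a library. FAP made up most of the fibroblast sum, at 37.3 CPM on average against 47.0 CPM without overlap (log2 fold change 0.33, adjusted p = 0.0755, and 4.33e-04 with the block). The part of these markers in the differences below was not tested.

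These promoter sequences belong to the members on which the results turn. GPX3 is shown because it alone passed the edgeR test between the groups, GCLM, GSTA4 and TXNRD1 because they passed a test of the group with a replicate block or of the replicate number (both explained below) and hold a motif, and GSTP1 and GPX2 because they hold the same motif but had no counts. Sequences are from RefSeq (GRCh38.p14), 5′ to 3′ on the strand of the gene, and positions count from the RefSeq start of the gene, the base before it being -1. The count table's annotation starts all of these genes but TXNRD1 further upstream. Capitals mark the core of the antioxidant response element, TGACNNNGC, the element bound by NRF2, or its reverse complement GCNNNGTCA.
GPX3 (chr5:151020341-151020437, plus strand, -250 to -154): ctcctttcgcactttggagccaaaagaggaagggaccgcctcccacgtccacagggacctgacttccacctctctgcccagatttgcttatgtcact
GCLM (chr1:93909446-93909474, minus strand, -44 to -16): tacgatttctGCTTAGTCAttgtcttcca
GSTA4 (chr6:52995285-52995303, minus strand, -19 to -1): ccgggaccgcTGACCTGGC
TXNRD1 (chr12:104215670-104215698, plus strand, -109 to -81): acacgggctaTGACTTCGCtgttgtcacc
GSTP1 (chr11:67583736-67583764, plus strand, -76 to -48): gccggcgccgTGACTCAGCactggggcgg
GPX2 (chr14:64942849-64942877, minus strand, -132 to -104): acctgtttttGCTAAGTCAtcctggggat
The promoter table, with 250 bases before and 50 after each start, held 46 promoters of 32 of the 41 members. SLC7A11, GSS, GSR, TXN2, PRDX1, PRDX6, SOD1, MGST2 and HMOX1 are named only. On either strand, the motif stood in 9 of the 46 promoters (19.6%) and in 4687 of all 35116 (13.3%). Of the 11 members with a promoter here that passed with the replicate block, 2 held it, GCLM and GSTA4. Over all genes with promoters, 16.1% held it. Besides the 5 genes printed with it, AIFM2, MGST1 and KEAP1 held one, and the 300 bases of GPX3 held 0. TXNRD1 and KEAP1 held it in both orientations. GCLM and GPX2 have it on the reverse strand, with GCTTAGTCA and GCTAAGTCA as the printed letters. The genes without counts differed in CpG dinucleotides, with 36 in the 300 bases of GSTP1 and 4 in those of GPX2, against a median of 14 over all promoters. A match of letters is a description and not a binding site.

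Levels of the members spanned a wide range. To compare genes, counts were divided by exonic length (FPKM, counts scaled to gene length and library size). GSTA1, an alpha class glutathione transferase, stood highest with 606 to 754 FPKM over the 6 libraries. PRDX1 followed with 296 to 370 FPKM, then TXN with 285 to 354 FPKM, PRDX2 with 264 to 318 FPKM and PRDX5 with 195 to 263 FPKM. These ranges overlap between neighbours from PRDX1 to PRDX2, so their order is not resolved. In all, 12 of the 38 members tested lay above the 95th percentile of the mean FPKM of the 16710 genes tested, and 33 lay above the median.

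**Figure D1:**
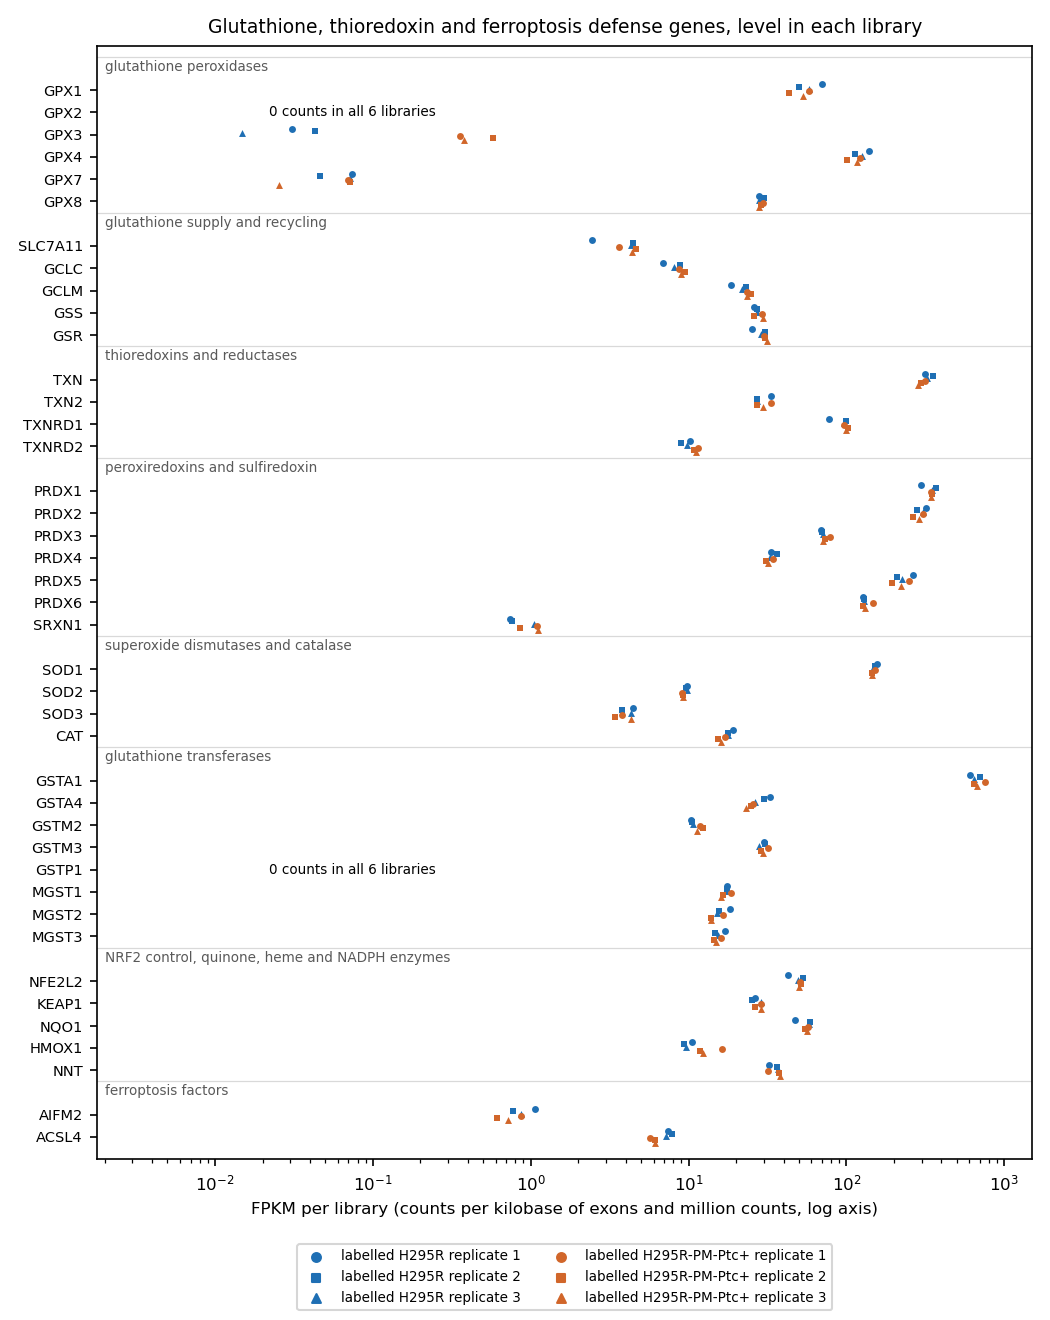
FPKM of each of the 41 members in each library, on a log axis, ordered by role; blue symbols are libraries labelled H295R and orange symbols those labelled H295R-PM-Ptc+, with 1 symbol shape for each replicate number. GSTA1 lies at the right edge with 606 to 754 FPKM, GSTP1 and GPX2 had 0 counts, and GPX3 is the member whose blue and orange symbols lie far apart.

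A few members had no counts or nearly none. GSTP1, the pi class transferase that many carcinomas express highly (chr11:67583595-67586660), had 0 counts in all 6 libraries, among 147754441 fragments counted on genes. GPX2, the peroxidase of the gut epithelium (chr14:64939152-64942905), also had 0 counts in all 6. A count of 0 allows up to 3 counts, or 0.117 to 0.130 CPM per library, for counting error only. GPX7, a peroxidase of the endoplasmic reticulum, held 1 to 3 counts per library and 15 in all, and was not tested. The least expressed members that could be tested included AIFM2, which encodes the ferroptosis suppressor FSP1 that recycles coenzyme Q. It had 78 to 130 counts per library and 0.611 to 1.06 FPKM.

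Between the groups, 1 of the 38 members tested was called higher at an adjusted p under 0.05, against 2.42% of all genes, and 0 were called lower, against 1.32%. In either direction that is 1 member, against 3.73% of all genes. At an unadjusted p under 0.05, 7 of the 38 (18.4%) passed, 4 higher and 3 lower, against 17.3% of all genes. DESeq2 called GPX3 and HMOX1 higher and ACSL4 lower, against 3.37% of all genes higher and 2.08% lower, and limma-voom called GPX3 alone, against 2.36% of all genes higher and 1.28% lower, or 3.64% in either direction. The median log2 fold change of the 38 was 0.03, and 0.02 without GPX3, beside 0.00 over all 16710 genes. Apart from GPX3, the members lay between -0.32 and 0.46, and 30 of the 37 lay within 0.2 of 0. Their median SE was 0.089. Leaving out 1 library moved the log2 fold change by over 1.5 times in 31 of the 38, and by less in GPX3, TXNRD2, SOD2, CAT, GSTA4, GSTM2 and ACSL4.

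When the replicate number entered the edgeR fit as a block, 12 of 38 (31.6%) were called, against 22.5% of all genes. Of these, 6 were higher (12.1% of all genes) and 6 were lower (10.4%). The higher ones were GPX3, GCLC, GCLM, TXNRD2, GSTM2 and HMOX1, and the lower ones GPX1, GPX4, TXN, CAT, GSTA4 and ACSL4. Without overlap between the groups were 9 of 38 (23.7%), against 23.5% of all genes, a share near the background. Fewer cells with a transcript and less of it per cell cannot be told apart in such bulk RNA.

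**Figure D2:**
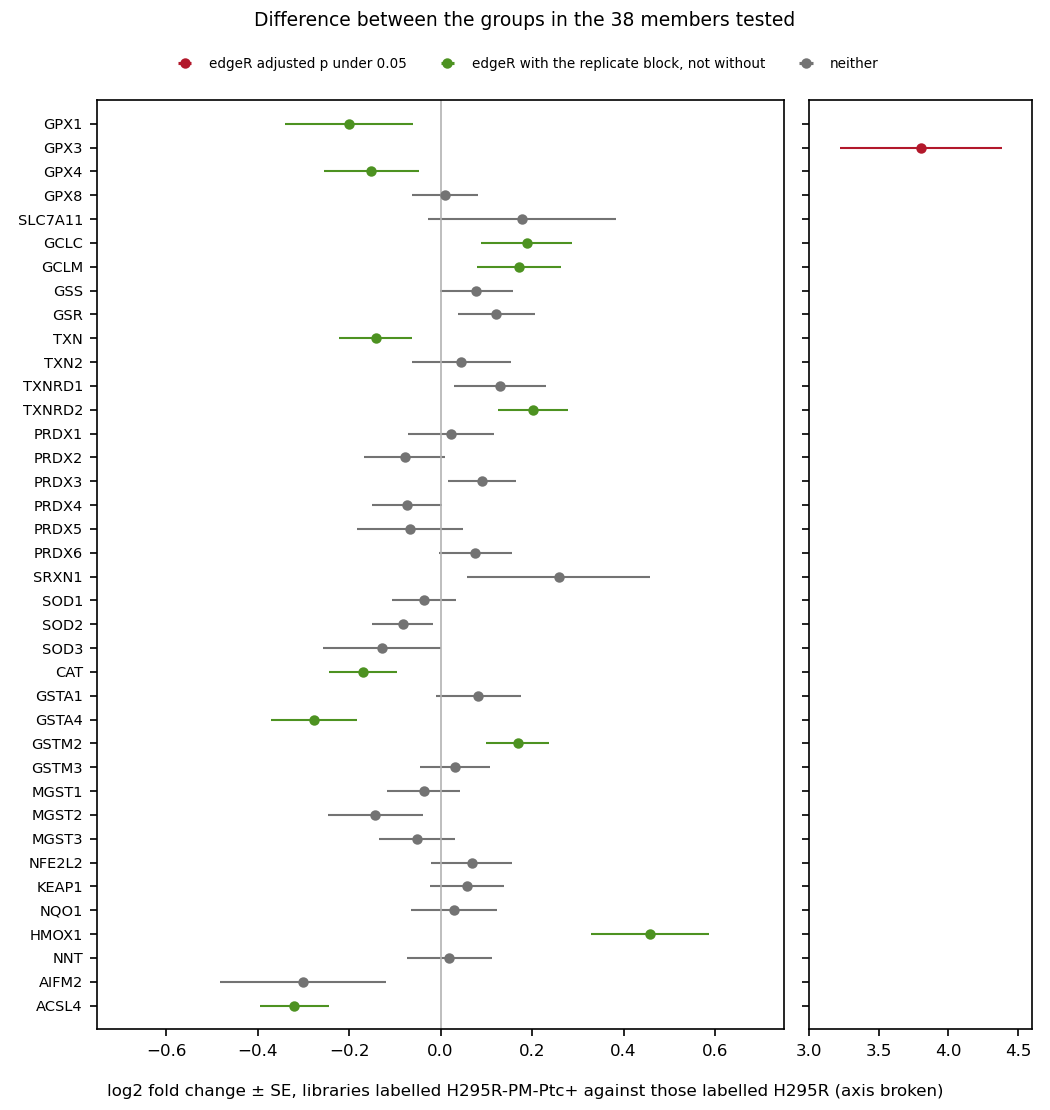
Log2 fold change ± SE of the 38 members tested, by role, from the edgeR fit of the libraries labelled H295R-PM-Ptc+ over those labelled H295R (n = 3 each); the axis is broken for GPX3. GPX3 (3.80) alone passed in this fit, 11 further members passed when the replicate block was added (green), and the other 26 lie between -0.30 and 0.26.

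GPX3, the glutathione peroxidase secreted into plasma (chr5:151020438-151028993), had 2, 3 and 1 counts in the libraries labelled H295R and 25, 39 and 24 in those labelled H295R-PM-Ptc+. All 3 libraries of the second group lay above the first, in each case at a very low level of 0.978 to 1.57 CPM. The summed counts of 6 and 88 gave a ratio of 14.8, corrected for library size, with a 95% exact interval of 6.51 to 41.3 that covers counting error only. The fitted log2 fold change was 3.80 (SE 0.581, adjusted p = 0.00186, edgeR), and it depends on the prior count at such low counts. GPX3 passed the filter on low counts only through the group in which it was high. It was called with each of the 6 libraries left out in turn, with adjusted p-values of 0.00341 to 0.0155.

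The other 3 glutathione peroxidases tested had log2 fold changes between -0.20 and 0.01. GPX4, the selenoenzyme that reduces phospholipid hydroperoxides in membranes, had 282, 228 and 253 CPM in the libraries labelled H295R and 246, 204 and 237 in the others. These values overlap, and within each pair of equal replicate numbers the library labelled H295R was the higher. The log2 fold change of GPX4 was -0.15 (SE 0.104, adjusted p = 0.523, and 0.0182 with the replicate block). GPX1, the abundant cytosolic peroxidase, stood at -0.20 (SE 0.140, adjusted p = 0.529, and 0.00760 with the block). Both values moved with single libraries in the fit without the block. GPX4 stood at -0.07 without H295R replicate 1 and at -0.08 without H295R-PM-Ptc+ replicate 2. GPX1 stood at -0.07 and -0.09 without the same 2 libraries, and at -0.31 without H295R replicate 2 and -0.30 without H295R-PM-Ptc+ replicate 1. GPX8 of the endoplasmic reticulum stood at 0.01 (adjusted p = 0.967), and its sign turned when single libraries were left out.

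Genes of glutathione supply and recycling had positive fold changes in 5 of 5, between 0.08 and 0.19, with 0 of 5 past the edgeR test (0 at an unadjusted p under 0.05) and 2 past it with the block, beside 17.3% of all genes at an unadjusted p under 0.05 and 22.5% past the block. The count of 5 rests on 1 library, since SLC7A11 stood at -0.05 without H295R replicate 1. SLC7A11, the light chain of the cystine importer, had 23.5, 42.8 and 41.5 CPM in the libraries labelled H295R and 34.8, 44.8 and 42.5 in those labelled H295R-PM-Ptc+. Replicate 1 was the lowest in both groups, and the groups overlapped (log2 fold change 0.18, SE 0.205, adjusted p = 0.743). GCLC, the catalytic subunit of glutamate cysteine ligase and so of the limiting step of glutathione synthesis, stood at 0.19 (SE 0.0991, adjusted p = 0.384, and 0.0166 with the block). GCLM, its modifier subunit, had 101, 125 and 119 CPM against 127, 134 and 126 CPM. The groups of GCLM did not overlap, at 0.17 (SE 0.0920, adjusted p = 0.397, and 0.0229 with the block). Without H295R replicate 1 the log2 fold changes of GCLC and GCLM were 0.09 and 0.08. Glutathione synthetase GSS (0.08, adjusted p = 0.696) and glutathione reductase GSR (0.12, adjusted p = 0.528) did not pass either fit. GSS stood at 0.03 when H295R-PM-Ptc+ replicate 3 was left out, and GSR at 0.05 when H295R replicate 1 was. Of the GCLC exons, 6.25% of the length is shared with another annotated gene on the same strand.

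Among the thioredoxins and their reductases, 0 of 4 passed the edgeR test and 1 had an unadjusted p under 0.05, as had 17.3% of all genes. That one, TXNRD2, the mitochondrial thioredoxin reductase, had 78.7, 69.2 and 75.4 CPM against 88.2, 83.3 and 85.5, so the groups lay apart. Its log2 fold change was 0.20 (SE 0.0766, adjusted p = 0.212, and 0.00565 with the block). TXN, the cytosolic thioredoxin, stood at -0.14 (SE 0.0806, adjusted p = 0.423, and 0.0486 with the block), and at -0.09 without H295R replicate 2. At replicate 1 TXN had 358 CPM against 359 CPM, so it was not lower in every pair of equal replicate numbers. TXN2, the mitochondrial thioredoxin, stood at 0.05 and the cytosolic reductase TXNRD1 at 0.13, and neither passed with the block. Without H295R replicate 1, TXNRD1 stood at 0.03.

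Peroxiredoxins, which break down hydrogen peroxide and mostly take electrons from thioredoxin, had log2 fold changes between -0.08 and 0.09. All 7 genes, with the sulfiredoxin SRXN1 that reactivates some of them, missed the threshold with and without the block, and 0 had an unadjusted p under 0.05. Over all genes, 3.73% passed without the block, 22.5% with it, and 17.3% had an unadjusted p under 0.05. PRDX1 and PRDX2 of the cytosol stood at 0.02 and -0.08, PRDX3 of the mitochondria at 0.09, PRDX4 of the endoplasmic reticulum at -0.07, PRDX5 at -0.07 and PRDX6 at 0.08. SRXN1 had 48 to 76 counts per library and a log2 fold change of 0.26 (SE 0.20, adjusted p = 0.577). Another gene annotated on the same strand shares 84.95% of the SRXN1 exons, and reads from the shared stretch could be assigned to neither, so the count of SRXN1 is a partial one. PRDX1 also has processed copies in the genome that may take part of its reads.

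Superoxide dismutases and catalase had negative fold changes in 4 of 4, between -0.17 and -0.04, with 0 of 4 past the edgeR test and 1 (CAT) at an unadjusted p under 0.05, beside 17.3% of all genes. CAT, which splits hydrogen peroxide in peroxisomes, had 64.0, 59.5 and 59.5 CPM against 57.0, 51.6 and 54.0. The groups of CAT lay apart by a narrow margin, at -0.17 (SE 0.0744, adjusted p = 0.282, and 0.0222 with the block). SOD2 of the mitochondrial matrix also lay apart, with 183 to 186 CPM against 174 to 175, at -0.08 (adjusted p = 0.596, and 0.178 with the block). Cytosolic SOD1 (-0.04) and extracellular SOD3 (-0.13) overlapped between the groups.

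Of the 7 glutathione transferases with counts, which couple glutathione to electrophiles, 0 passed the edgeR test and 2 (GSTA4 and GSTM2) had an unadjusted p under 0.05, beside 17.3% of all genes. GSTA4, which has a preference for the lipid peroxidation product 4-hydroxynonenal (chr6:52977948-52995378), had 71.4, 65.0 and 57.1 CPM against 55.6, 53.8 and 50.3. The lowest library labelled H295R lay just above the highest of the others. The log2 fold change of GSTA4 was -0.28 (SE 0.0944, adjusted p = 0.165, and 0.00138 with the block). GSTM2, a mu class transferase, stood at 0.17 (SE 0.0691, adjusted p = 0.254, and 0.0254 with the block), and 11.1% of its exonic length is shared with GSTM1 and GSTM4. GSTA1 (0.08), GSTM3 (0.03) and the membrane-bound MGST1 (-0.04), MGST2 (-0.14) and MGST3 (-0.05) missed the threshold in both fits. GSTA1 is close in sequence to GSTA2, and the mu class genes to each other, so reads may be split between them.

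NRF2, encoded by NFE2L2, drives many of these genes when it escapes KEAP1, the adaptor that marks it for degradation. NFE2L2 stood at 0.07 (adjusted p = 0.773) and KEAP1 at 0.06 (adjusted p = 0.793), with 16.6% of the exonic length of NFE2L2 shared with another annotated gene on the same strand. NQO1, a quinone reductase and a standard NRF2 target, stood at 0.03 (adjusted p = 0.920). HMOX1, the inducible heme oxygenase (chr22:35380361-35394214), had 604, 572 and 569 counts against 1007, 705 and 683. All 3 libraries labelled H295R-PM-Ptc+ lay above the others, and replicate 1 lay well above its own group. HMOX1 had 23.6 ± 1.47 CPM against 32.4 ± 6.07 CPM (SD, n = 3 each). The difference was 0.46 on the log2 scale (SE 0.129, adjusted p = 0.0955, edgeR). It passed with the block (2.63e-04), with DESeq2 (0.0424) and unfiltered (0.0136). It missed the threshold with limma-voom (0.110), RLE size factors (0.0966) and a minimum of 10 counts (0.104). Every fit that left out a library also missed it (0.0685 to 0.268). Leaving out H295R-PM-Ptc+ replicate 1 lowered the log2 fold change to 0.29. NNT, which makes mitochondrial NADPH from the proton gradient and whose loss causes adrenal glucocorticoid deficiency, stood at 0.02 (adjusted p = 0.949).

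ACSL4 loads long polyunsaturated fatty acids into phospholipids and so makes membranes prone to ferroptosis (chrX:109624244-109733403). It had 1134, 1282 and 1138 counts in the libraries labelled H295R and 933, 976 and 917 in those labelled H295R-PM-Ptc+, with a clear gap between the groups. That is 48.0 ± 2.27 CPM against 38.5 ± 1.70 CPM (SD, n = 3 each) and a log2 fold change of -0.32 (SE 0.0753, adjusted p = 0.0547, edgeR). ACSL4 passed with the block (7.29e-04) and with DESeq2 (0.0315). It missed the threshold with limma-voom (0.0594), RLE size factors (0.0541), a minimum of 10 counts (0.0600) and no filter (0.0559). Every fit that left out a library also missed it (0.0537 to 0.166), with log2 fold changes of -0.36 to -0.28. AIFM2 stood at -0.30 (SE 0.182, adjusted p = 0.457) and was lower in 3 of 3 pairs, but the groups overlapped and it did not pass with the block (0.114). Leaving out H295R replicate 1 gave -0.17, leaving out H295R-PM-Ptc+ replicate 2 gave -0.19 and leaving out H295R-PM-Ptc+ replicate 1 gave -0.45.

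**Figure D3:**
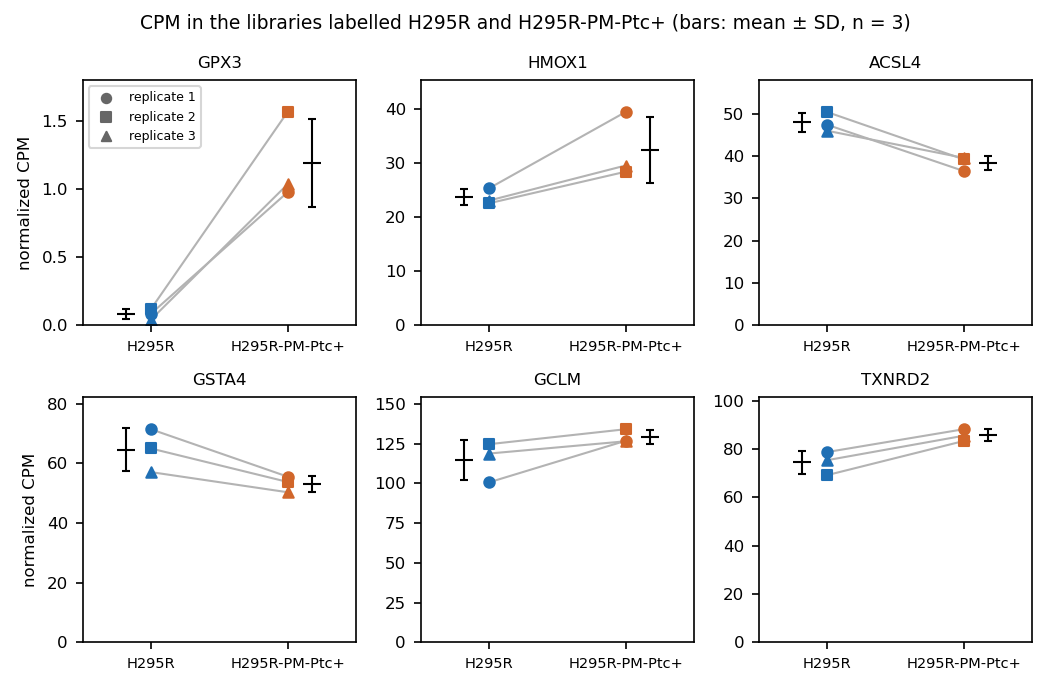
Normalised CPM of 6 members in the libraries labelled H295R (blue) and H295R-PM-Ptc+ (orange); grey lines join equal replicate numbers and black bars give the mean ± SD (n = 3). The 6 shown are all among the 9 of 38 members (23.7%) whose groups do not overlap, against 23.5% of all genes. Of these 6, GPX3 alone passed the edgeR fit without the block.

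Members also varied with the replicate number. In a test of the replicate number with the group in the model (edgeR, 2 degrees of freedom), 13 of 38 (34.2%) had an adjusted p under 0.05, against 26.0% of all genes. DESeq2 gave 7 such members, and leaving out replicate 3 gave 6 where it was the H295R library and 7 where it was the H295R-PM-Ptc+ library. In all 13, replicate 1 deviated from the mean of replicates 2 and 3 in the same direction in both groups, lower in 4 and higher in 9. The test looks for an effect shared by both groups and so favours equal directions, which 98.7% of all 4341 genes past it had, 54.8% lower and 43.9% higher. The 4 lower in replicate 1 were SLC7A11, GCLC, TXNRD1 and NNT. The largest of these shifts was in SLC7A11, at -0.84 (log2) among the libraries labelled H295R and -0.33 among the others (adjusted p = 6.74e-04). TXNRD1, by contrast, shifted by -0.33 and -0.06 (adjusted p = 0.0453). The 9 higher in replicate 1 were GPX1, GPX4, TXN2, PRDX2, PRDX5, GSTA4, MGST2, MGST3 and HMOX1, with GPX1 at 0.37 and 0.27 (adjusted p = 1.56e-04). HMOX1 shifted by 0.15 in one group and by 0.45 in the other (adjusted p = 0.0142), and whether the groups differ in this was not tested. The median log2 ratio of the members between equal replicate numbers was 0.09 in pair 1, -0.07 in pair 2 and -0.01 in pair 3. The labels give a code to each number and no account of it, so what the replicates 1 share is not known here.

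**Figure D4:**
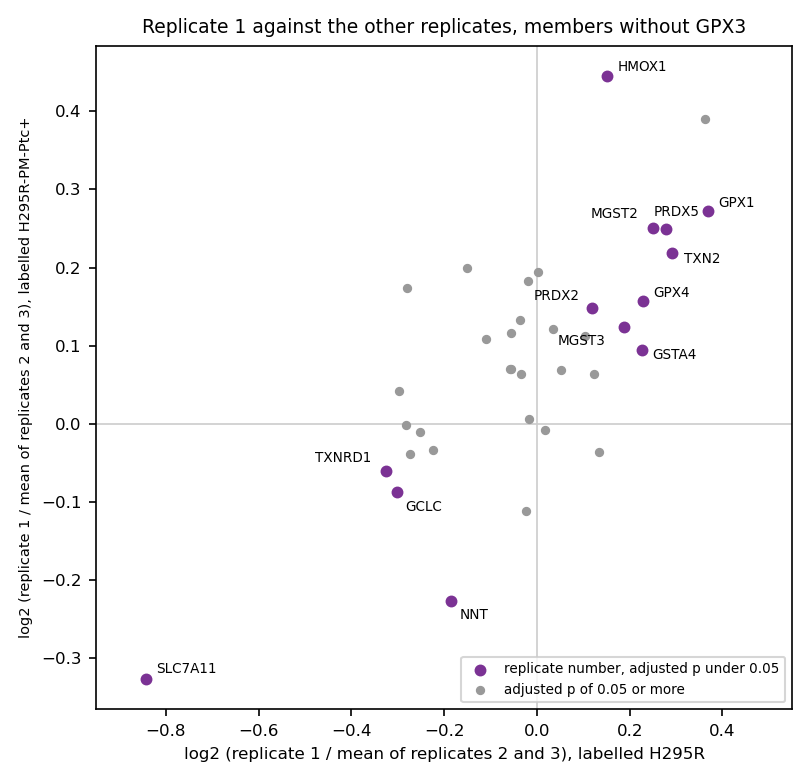
Log2 ratio of replicate 1 to the mean of replicates 2 and 3 for 37 members, in the libraries labelled H295R (horizontal axis) and H295R-PM-Ptc+ (vertical axis). The 13 members with a replicate effect (purple, named) lie in the lower left and the upper right, with SLC7A11 farthest out at -0.84 and -0.33.

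A wider view of the same pathways was taken with 5 lists of 141 further genes, of which 139 were in the table and 124 were tested. By the edgeR test 3 were higher and 1 was lower, beside the shares of all genes given above, and 34 (27.4%) passed with the replicate block, against 22.5% of all genes. Omitting H295R replicate 2, H295R replicate 3 or H295R-PM-Ptc+ replicate 3 gave 2 called genes in place of 4, and omitting H295R-PM-Ptc+ replicate 2 gave 1. Of the 26 other glutathione enzymes and carriers tested, 2 were higher and 0 lower, and 12 (46.2%) passed with the block, against 22.5% of all genes. GGT5, which breaks down extracellular glutathione conjugates, had 10, 8 and 5 counts against 35, 39 and 33, at 2.21 (SE 0.308, adjusted p = 0.00346). GLRX, the cytosolic glutaredoxin, had 10.8, 10.8 and 9.79 CPM against 16.5, 15.1 and 13.7, at 0.53 (SE 0.107, adjusted p = 0.0315). GGT5, like GPX3, passed the filter on low counts only through the group in which it was high, and the requirement of 10 counts in every library removed it. Of the 6 fits that left out a library, GLRX was called in that without H295R replicate 1, with adjusted p-values of 0.0272 to 0.144 over the 6.

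Over all genes, 2.42% were called higher, 1.32% lower and 22.5% with the block, and the counts of the remaining lists stand beside these shares. Of 30 other NRF2 pathway genes tested, 1 was higher and 0 lower, and 9 passed with the block. This was OSGIN1, an oxidative stress response gene, with 14.4, 15.5 and 18.7 CPM against 24.1, 22.4 and 22.5, at 0.50 (SE 0.110, adjusted p = 0.0419), and of the 6 fits that left out a library, it was called in that without H295R replicate 3, with adjusted p-values of 0.0377 to 0.140 over the 6. Of the 18 genes tested from the list of selenoproteins and of factors for their synthesis and supply, 0 were higher and 1 lower, and 4 passed with the block. This one was LRP8, a receptor for the selenium carrier selenoprotein P, with 20.1, 21.5 and 21.0 CPM against 13.8, 13.5 and 15.0, at -0.57 (SE 0.0881, adjusted p = 0.00985), called in 4 of the 6 fits that left out a library. The exceptions left out H295R replicate 3 (0.0543) and H295R-PM-Ptc+ replicate 2 (0.0610). Of the 25 thioredoxin partners and methionine sulfoxide repair genes and of the 25 other ferroptosis and iron genes, 0 were called in either direction. At an unadjusted p under 0.05 there were 1 and 3, against 17.3% of all genes, and 3 and 6 passed the fit with the block. DESeq2 called 1 gene of each of these lists, against 5.45% of all genes.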

How the data were processed

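The authors sequenced paired reads of stranded libraries (the paper names an mRNA kit, the labels a total RNA kit and polyA RNA), mapped them to hg38 with STAR 2.4.0a and summed fragments by gene name (featureCounts, stranded, Ensembl GRCh38), taking reads with several positions at the primary one; the Subread version is 1.5.0-p3 in the submitters' processing notes, and the paper names another. They deposited raw counts, 1 column per library, without normalization. A row of spike sequences names no gene and held 0 counts (0%) in every library. Gene counts were 23264403 to 25813247 per library.

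Counts were fitted with edgeR 4.0.16 in R 4.3.3 (TMM, filterByExpr, glmQLFit, glmQLFTest, two-sided, Benjamini-Hochberg adjustment over 16710 genes, group as the only term, called at an adjusted p under 0.05). CPM use TMM-scaled library sizes and FPKM the exonic length in the table. Alternatives were DESeq2 1.42.0, limma-voom (limma 3.58.1), the replicate number as a block, a minimum of 10 counts in each library, no filter, RLE size factors, and leaving out single libraries. Same-numbered replicates were taken as pairs because the labels give both groups the same replicate codes. Their deviations from the group means had correlations across genes of 0.497, 0.307 and 0.228, against -0.352 to 0.150 for unequal numbers. The deviations of a group cancel out in each gene, so positive values at equal numbers push those at unequal numbers down. This contrast is therefore no independent check of the pairing. Nothing says that replicates were separate cultures, so p-values measure the spread between these libraries. Scripts were tested on simulated counts. Tables were handled with Python 3.11.15, pandas 2.3.3 and scipy 1.17.1 and drawn with matplotlib 3.10.9. All 41 members, PTCH1, and of each further list up to 3 genes per direction with the smallest adjusted p under 0.05 are named. The members and lists were chosen with earlier results of these data known.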

Additional observations from a re-analysis of the deposited data

How the results depend on the processing

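The median log2 fold change of the members lay between -0.01 and 0.05 under all alternatives, and no scaling moved the median of all genes by over 0.1. GPX3 was called in every alternative that tested it, with log2 fold changes of 3.48 to 4.17. The number of members called higher (1) was 2 with no filter on low counts, 0 with at least 10 counts in every library (where GPX3 was not tested), 2 with DESeq2 and 6 with the replicate block. The number called lower (0) was 1 with DESeq2 and 6 with the block. The 4 other pathway genes called became 7 with no filter, 8 with DESeq2 and 34 with the block, and 1 to 5 with a library left out. GPX3, PTCH1, GGT5, GLRX, OSGIN1 and LRP8 were also called with the replicate block. The log2 fold change of PTCH1 lay between -0.91 and -0.67 with a library left out. The 13 members with a replicate effect were 7 with DESeq2 and 6 to 19 with a library left out. With libraries left out in turn, members near 0 changed sign, with ranges in GPX8 of -0.020 to 0.045, SLC7A11 -0.053 to 0.32, TXN2 -0.039 to 0.15, PRDX1 -0.067 to 0.090, PRDX5 -0.16 to 0.030, GSTM3 -0.017 to 0.058, MGST3 -0.10 to 0.012, NFE2L2 -0.012 to 0.13, NQO1 -0.065 to 0.084 and NNT -0.041 to 0.084. The causes were not tested. Of the other values of single genes, 458 kept direction and side of the threshold, 14 newly passed it and 12 no longer did. Counts under about 10 per library limit GPX3, GPX7 and GGT5, and 3 libraries a group limit the rest.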
